A study of Homo sapiens with 18 samples.

Results

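The genes described here are the insulin-like growth factor (IGF) binding proteins IGFBP2 to IGFBP7, the pappalysins PAPPA and PAPPA2, and the receptors IGF1R and IGF2R. They were taken from the count table by gene symbol, as a family chosen with earlier results of these data known, and make 10 of its 58735 genes. RNA was sequenced from PODO/TERT256, a telomerase-immortalised line of human podocytes, the epithelial cells that wrap the filtering capillaries of the kidney. The cells grew on 3D hemispheres with fractal or smooth topography, and on each surface they received TNF-α and IL-6 (cytokines), macrophages derived from the monocytic leukaemia line THP-1, or neither (control). Each of the 6 groups had 3 libraries. All groups are the same single line, and doses and exposure times are not given in the sources used here. Whether a group's 3 libraries were separate cultures is not stated, so the p-values may reflect technical spread alone.

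IGF1 and IGF2 are secreted growth factors that signal through IGF1R, a receptor tyrosine kinase. Binding proteins hold the ligands outside the cell, and pappalysins are secreted metalloproteases that cut binding proteins and so release ligand. PAPPA cuts mainly IGFBP4 and IGFBP5, PAPPA2 cuts IGFBP3 and IGFBP5, and the stanniocalcins STC1 and STC2 inhibit PAPPA. IGF2R clears IGF2 and sorts lysosomal enzymes. Podocytes respond to insulin and IGFs.

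Library totals ran from 11488204 counts, in fractal THP-1 replicate 3, to 21264180. That library also had the fewest genes with counts, 17934, against 21039 in the next lowest, fractal cytokines replicate 1. A pair of libraries stood apart from their groups: smooth cytokines replicate 2, with 8.09% of counts on mitochondrial genes, and fractal THP-1 replicate 3, with 0.847%, against 3.86% to 4.63% in the other 16. Results that rest on them are given with and without them. Among podocyte markers, SYNPO, PODXL, CD2AP and ACTN4 had counts in every library, and NPHS1, WT1 and PTPRO had 6, 37 and 27 counts in total. The summed level of 15 monocyte and macrophage markers was 19.2 to 20.9 CPM in fractal THP-1 and 35.6 to 39.6 CPM in smooth THP-1 libraries, against 1.88 to 3.20 CPM in fractal and 1.82 to 2.68 CPM in smooth controls. It was 2.23 to 3.44 CPM in fractal and 4.51 to 5.14 CPM in smooth cytokine libraries, and MRC1 was at 0 in both THP-1 groups. Of the 15, 4 averaged at least 1 CPM in fractal THP-1 and 9 in smooth THP-1 libraries, against 1 in fractal and 0 in smooth controls. The summed level of 9 mesangial, smooth muscle and fibroblast markers was 8498 to 10962 CPM in fractal cytokines, 5269 to 9046 in smooth cytokines, 3347 to 8450 in fractal THP-1, 3245 to 3605 in smooth THP-1, 6479 to 6585 in fractal control and 5567 to 5907 in smooth control libraries. COL1A1 alone gave most of this sum, with means of 9412 CPM in fractal cytokines, 6595 in smooth cytokines, 4878 in fractal THP-1, 3199 in smooth THP-1, 6387 in fractal control and 5576 in smooth control libraries. The fractal THP-1 mean covers libraries whose sums ran from 3347 to 8450 CPM. The COL1A1 means were not computed without the libraries that stood apart. Other genes of the list differed: DCN averaged 126 CPM in fractal cytokines against 7.38 in fractal controls and 225 CPM in smooth cytokines against 10.3 in smooth controls, whereas THY1 averaged 52.5 against 81.7 CPM and 34.6 against 115 CPM. LUM averaged 104 CPM in fractal cytokines against 16.9 in fractal controls and 128 CPM in smooth cytokines against 24.6 in smooth controls. The part of these marker shifts in the results was not tested. Because RNA was taken from whole cultures, fewer cells of a type and less RNA per cell cannot be told apart.

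IGFBP4 was the most abundant of the 6 binding protein transcripts in every group. Levels are counts per 1000000 counts after TMM scaling (CPM). Divided by exon length in kb, so that genes can be compared, IGFBP4 averaged 1509 CPM per kb in fractal cytokines and 1432 in smooth cytokines. It averaged 1144 in fractal THP-1, 442 in smooth THP-1, 1158 in fractal control and 852 in smooth control libraries. IGFBP7 followed at 191 to 292 CPM per kb over the groups. The receptor IGF2R averaged 27.0 to 40.0 and IGF1R 5.24 to 11.9 CPM per kb. PAPPA averaged 6.24 to 46.2 CPM per kb and PAPPA2 no more than 0.482. Annotation may differ from the authors', whose source is not stated, so these lengths are approximate.

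**Figure D1:**
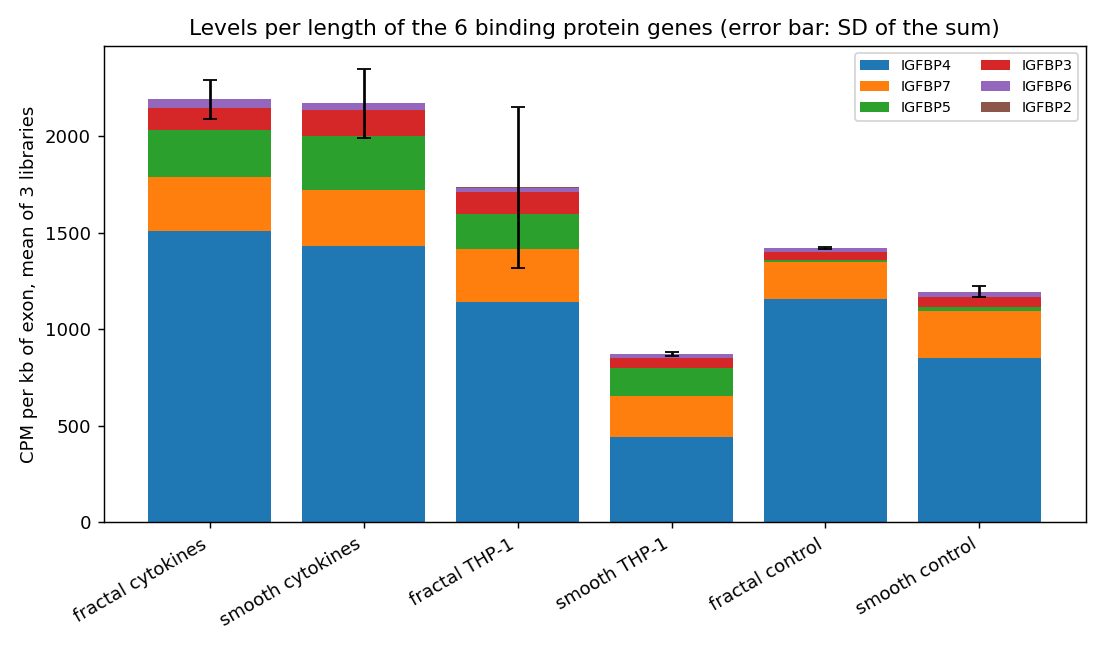
Mean level per length of the 6 binding protein genes, in CPM per kb of exon, stacked in each group of 3 libraries, with the SD of the sum as error bar. IGFBP4 forms most of each bar, the IGFBP5 segment is thin in the controls and wide in the treated groups, and smooth THP-1 has the lowest sum (872 CPM per kb).

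The make-up of the binding protein transcripts differed between groups, and this is given as a description. IGFBP5 made up 11.0 ± 0.29% of their summed level per length in fractal cytokines and 12.8 ± 1.3% in smooth cytokines (SD, n = 3 here and throughout). Its share was 10.95 ± 3.65% in fractal THP-1 (6.74 to 13.1%) and 16.3 ± 0.67% in smooth THP-1, against 0.697 ± 0.028% in fractal and 2.01 ± 0.071% in smooth controls. IGFBP4 made up 50.7 ± 1.0% in smooth THP-1 libraries and 81.3 ± 0.20% in fractal controls, the lowest and the highest group share.

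IGFBP5, which binds IGFs and matrix, had the widest range of group means among the 10 genes (4.80 on the log2 scale). It lies on chromosome 2 at 216672105 to 216695525, minus strand (GRCh38, GENCODE 29), next to IGFBP2 at 216632828 to 216664436, plus strand. It shares 298 exon bases with AC007563.2 on the other strand, and reads of the pair cannot be told apart there. Its promoter is shown with that of PAPPA because these are the binding protein and the protease with the clearest responses. Both are the 250 bases before the RefSeq start (GRCh38.p14), in gene orientation, IGFBP5 from chr2:216695550-216695799, minus strand, and PAPPA from chr9:116153541-116153790, plus strand. Capitals mark the motif matches found.
IGFBP5 promoter: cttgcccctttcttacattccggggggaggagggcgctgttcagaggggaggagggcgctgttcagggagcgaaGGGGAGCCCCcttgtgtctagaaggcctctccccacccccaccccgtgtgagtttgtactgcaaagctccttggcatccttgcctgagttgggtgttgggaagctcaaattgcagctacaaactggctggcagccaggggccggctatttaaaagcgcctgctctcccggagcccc
PAPPA promoter: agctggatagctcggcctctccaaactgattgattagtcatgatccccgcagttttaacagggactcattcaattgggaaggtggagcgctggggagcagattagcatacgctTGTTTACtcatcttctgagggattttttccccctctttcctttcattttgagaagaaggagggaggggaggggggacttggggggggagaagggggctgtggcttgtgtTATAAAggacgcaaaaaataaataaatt

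The capitals in IGFBP5 are a match to the NF-kB consensus, 176 to 167 bases before the start, and those in PAPPA are a FOXO match at 137 to 131 and a TATA box at 28 to 23. Both strands were searched, in windows of the same length, and 11 windows were found for 9 of the 10 genes, 3 of them for IGFBP2. The NF-kB match was in 3 of the 11 windows (IGFBP5, IGFBP6 and 1 of IGFBP2) and in 5.21% of all 35116 promoter windows. The FOXO motif, searched as GTAAACA, was in 2 of the 11 (PAPPA and IGFBP6) and in 2.98% of all windows. Of the 250 bases of the IGFBP6 window 231 are exon of that gene in GENCODE 29, and its NF-kB and FOXO matches lie within them. The TATA box, TATAAA, was in 2 (PAPPA and IGFBP4) and in 10.7%. The GC box, GGGCGG, was in 7 and in 42.6%. The STAT motif TTCNNNGAA was in 1 (PAPPA2) and in 6.57%. The AP-1 motif TGANTCA was in 0 of the 11, against 6.57% of all windows. The C/EBP motif TTGCNNAA was likewise in 0, against 9.05%. No motif overlapped another in the printed windows, and a match is a description of letters, not of binding.

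The cytokine groups ask how the cells respond to an inflammatory medium. IGFBP5 and IGFBP3, the main IGF carrier of serum, rose on both topographies, PAPPA rose on smooth topography, and PAPPA2 rose on fractal topography. IGFBP5 had 1538, 1594 and 1531 CPM in the fractal cytokine libraries, against 63.6, 66.5 and 61.6 CPM in fractal controls. On smooth topography it had 2162, 1593 and 1653 CPM with cytokines, against 155, 150.05 and 158 CPM in controls. Every treated library was far above every control library. The log2 fold change was 4.60 ± 0.12 (SE) on fractal and 3.54 ± 0.11 on smooth topography (adjusted p = 5.19e-19 and 3.16e-17), ranks 46 and 96 from the top of 16129 genes tested. Tests are edgeR's quasi-likelihood tests on the counts, adjusted by Benjamini-Hochberg over all genes, and a gene passed where its adjusted p was under 0.05.

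IGFBP3 had 506, 532 and 539.5 CPM in fractal cytokine libraries, against 188, 181 and 194 CPM in fractal controls. In smooth cytokine libraries it had 729.8, 648 and 478 CPM, against 219, 212 and 229 CPM in smooth controls. The groups were separate on each topography, and the log2 fold changes were close, at 1.48 ± 0.10 and 1.49 ± 0.10. IGFBP4, the most abundant binding protein, averaged 3149.8 ± 218 CPM with cytokines and 1875 ± 43.9 CPM without on smooth topography, a rise of 0.75 ± 0.13. On fractal topography it averaged 3319 ± 157 CPM with cytokines and 2547 ± 11.6 CPM without (0.38 ± 0.13, adjusted p = 0.0280). That smaller rise missed the threshold in 8 of 18 fits that left out 1 library, with an adjusted p up to 0.145.

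IGFBP6, which prefers IGF2, had 56.3, 67.9 and 55.4 CPM in fractal cytokine libraries, against 31.1, 30.9 and 31.0 CPM in fractal controls, and rose by 0.95 ± 0.15. IGFBP7, a weak IGF binder secreted by stressed and senescent cells, rose on fractal topography by 0.56 ± 0.11, to 546 ± 41.6 CPM with cytokines, against 369 ± 7.90 CPM without. On smooth topography IGFBP6 averaged 45.6 ± 8.21 CPM with cytokines and 36.8 ± 2.18 CPM without, and IGFBP7 564 ± 13.2 and 468 ± 14.1 CPM. Neither passed there (adjusted p = 0.154 and 0.0680), although IGFBP7 did without the libraries that stood apart (0.000405). IGFBP2, which carries an integrin-binding site, was rare. It fell on smooth topography, with 0.915, 1.13 and 0.983 CPM with cytokines against 2.88, 2.65 and 3.34 CPM in controls (-1.54 ± 0.49, adjusted p = 0.0217). This call was lost without smooth control replicate 3 (adjusted p = 0.0640) or smooth cytokines replicate 1 (0.0732) or 3 (0.0632), and kept without the libraries that stood apart (0.000819).

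Both pappalysins responded, each on a different topography. PAPPA (chromosome 9, 116153804 to 116402322) had 558, 476 and 571 CPM in smooth cytokine libraries, against 223, 203 and 219 CPM in smooth controls. In fractal cytokine libraries it had 283, 275 and 281 CPM, against 262, 255 and 279.9 CPM in fractal controls. The groups were separate on smooth topography (1.32 ± 0.09, adjusted p = 5.33e-11) and overlapped on fractal (0.08 ± 0.09, adjusted p = 0.602). PAPPA2 had 7.05, 4.42 and 4.33 CPM in fractal cytokine libraries, against 0.803, 1.08 and 0.640 CPM in fractal controls, a rise of 2.62 ± 0.45. On smooth topography it had 2.50, 2.45 and 0.437 CPM with cytokines and 2.65, 2.36 and 2.54 CPM without (-0.50 ± 0.43, adjusted p = 0.450), with replicate 3 far below the other treated libraries. PAPPA2 rests on few reads, between 8 and 106 counts in each cytokine library.

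IGF1R rose on both topographies. It had 167, 162 and 171 CPM in fractal cytokine libraries, against 115, 111 and 108 CPM in fractal controls (0.58 ± 0.07). It had 118, 110.2 and 118 CPM in smooth cytokine libraries, against 85.9, 85.4 and 86.3 CPM in smooth controls (0.43 ± 0.07). IGF2R averaged 681 ± 38.5 CPM in fractal cytokines and 633 ± 2.98 CPM in fractal controls, and 714 ± 80.8 and 607 ± 20.0 CPM on smooth topography. It passed on neither (adjusted p = 0.432 and 0.0548), but did on smooth topography without the libraries that stood apart (0.32 ± 0.06, adjusted p = 2.77e-05). In all, 7 of the 10 genes rose and 0 fell on fractal topography, where 13.0% of all genes tested rose and 12.9% fell. On smooth topography 5 rose and 1 fell, against 13.2% and 12.4% of all genes. The median log2 fold change of the 10 was 0.57 on fractal and 0.37 on smooth topography, against 0.03 and 0.01 over all genes tested. Without the libraries that stood apart 7 passed on fractal and 8 on smooth topography, against 35.7% and 34.2% of all genes in either direction.

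**Figure D2:**
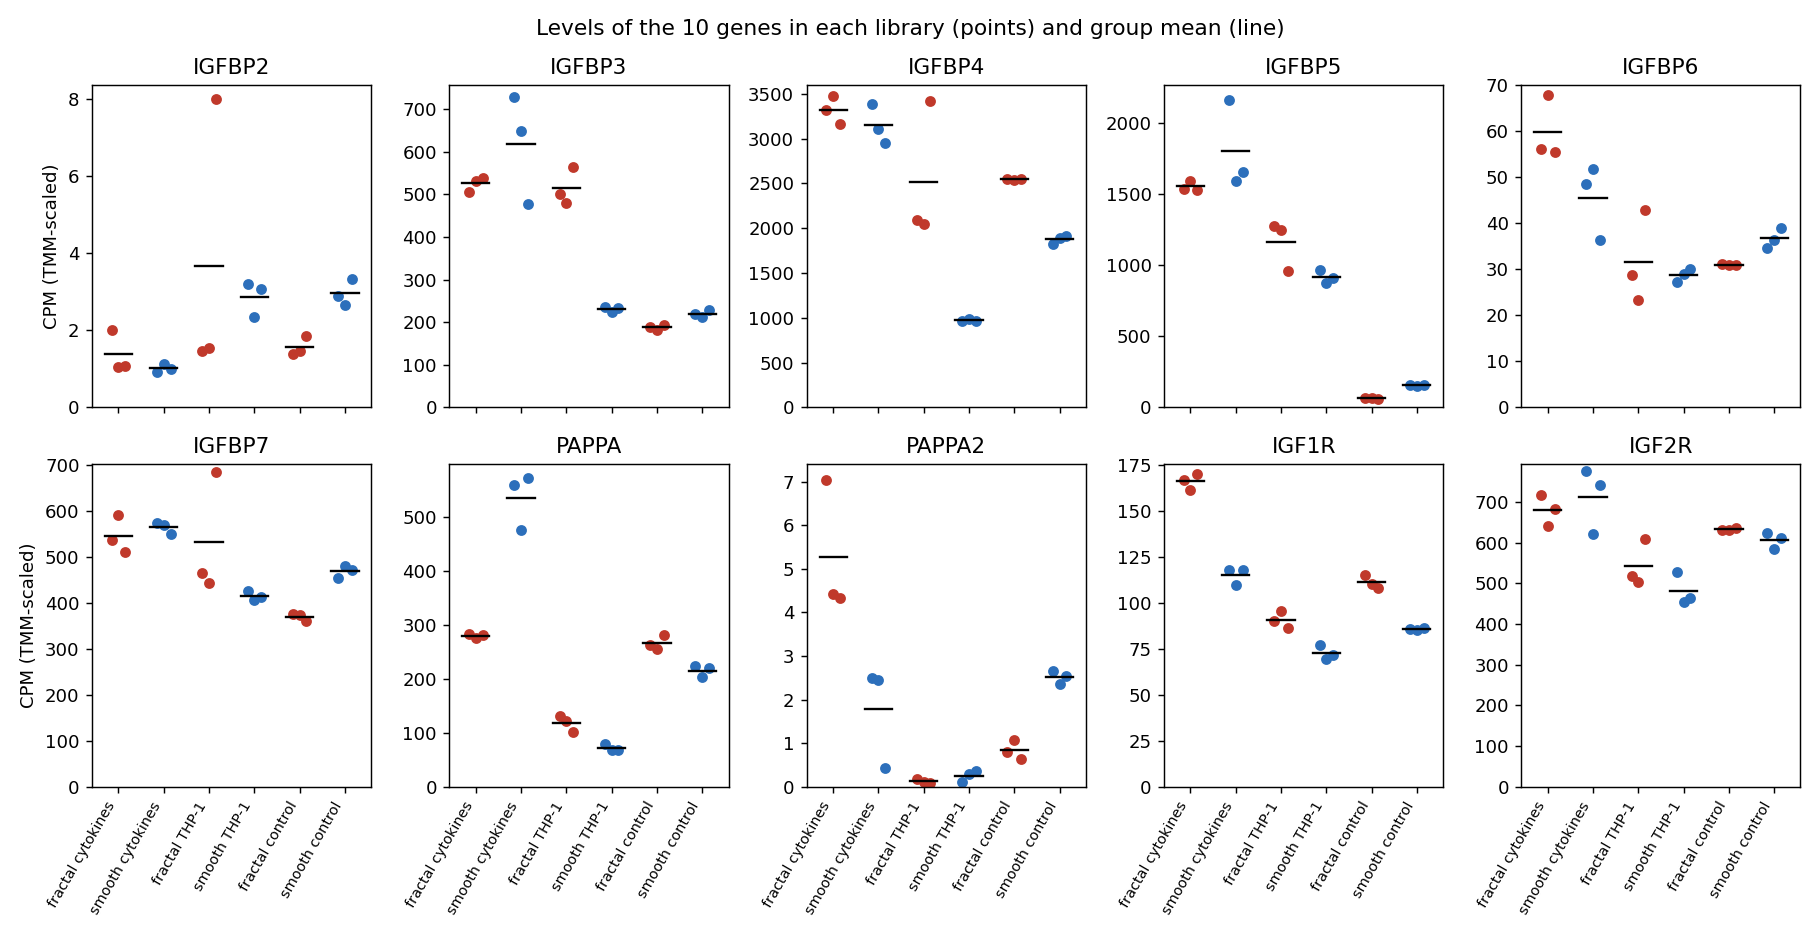
CPM of each gene in every library, 6 groups of 3, fractal in red and smooth in blue, with the group mean as a line and a linear axis from 0. IGFBP5 is low in controls alone, PAPPA is highest in smooth cytokines, and PAPPA2 is highest in fractal cytokines. Fractal THP-1 replicate 3 lies above its companions for IGFBP2, IGFBP3, IGFBP4, IGFBP6, IGFBP7 and IGF2R. It lies below them for IGFBP5, PAPPA, PAPPA2 and IGF1R.

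The THP-1 groups ask how the cells respond to macrophages. IGFBP5 again rose on both topographies, IGFBP3 and IGFBP7 rose on fractal topography, IGFBP4 fell on smooth topography, and both pappalysins and both receptors fell on each. IGFBP5 had 1273, 1245 and 962 CPM in fractal THP-1 libraries, against 61.6 to 66.5 CPM in the fractal controls. In smooth THP-1 libraries it had 966, 872 and 907 CPM, against 150.05 to 158 CPM in smooth controls. The rises were 4.18 ± 0.12 and 2.57 ± 0.11 (adjusted p = 1.09e-18 and 5.07e-15). IGFBP3 had 502, 479 and 565 CPM in fractal THP-1 libraries, against 181 to 194 CPM in fractal controls (1.46 ± 0.10). On smooth topography it had 235, 225 and 234 CPM with THP-1, against 212 to 229 CPM in controls, ranges that overlap (0.07 ± 0.10, adjusted p = 0.645).

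IGFBP4 had 967, 986 and 965 CPM in smooth THP-1 libraries, against 1825, 1891 and 1908 CPM in smooth controls, a fall of -0.95 ± 0.13. In fractal THP-1 libraries it had 2088, 2044 and 3419 CPM, against 2555, 2534 and 2552 CPM in fractal controls. Replicates 1 and 2 were below the controls and replicate 3, which stood apart, was above them. With it the change was -0.02 ± 0.13 (adjusted p = 0.922), and without both libraries that stood apart it was -0.31 ± 0.06 (6.98e-06). IGFBP7 had 465, 443 and 685 CPM in fractal THP-1 libraries, against 375, 373 and 360.4 CPM in fractal controls. It rose by 0.52 ± 0.11, or by 0.29 ± 0.06 without those libraries.

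IGFBP2 shows the same library most plainly, with 1.47, 1.54 and 8.01 CPM in fractal THP-1 libraries, against 1.38, 1.46 and 1.86 CPM in fractal controls. Its rise of 1.18 ± 0.47 (adjusted p = 0.0376) became -0.062 ± 0.38 (0.905) without the libraries that stood apart, so the call rests on fractal THP-1 replicate 3. IGFBP6 had 28.7, 23.4 and 43.0 CPM in fractal THP-1 libraries, against 30.9 to 31.1 CPM in fractal controls. It did not pass (0.02 ± 0.16, adjusted p = 0.925), and without those libraries it fell by 0.26 ± 0.11 on the log2 scale (0.0486). On smooth topography IGFBP2, IGFBP6 and IGFBP7 did not pass (adjusted p = 0.957, 0.0885 and 0.227), whereas IGFBP6 (-0.35 ± 0.10) and IGFBP7 (-0.18 ± 0.05) fell without those libraries.

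PAPPA had 131, 121 and 101.1 CPM in fractal THP-1 libraries, against 255 to 279.9 CPM in fractal controls, and 79.9, 68.3 and 68.4 CPM in smooth THP-1 libraries, against 203 to 223 CPM in smooth controls. The falls were -1.17 ± 0.09 and -1.57 ± 0.09 (adjusted p = 1.04e-10 and 2.50e-12). PAPPA2 had 3, 2 and 1 counts in fractal THP-1 libraries, against 14, 23 and 11 counts in fractal controls (-2.63 ± 0.68, adjusted p = 0.00212). It had 2, 5 and 6 counts in smooth THP-1 libraries, against 45, 41 and 35 counts in smooth controls (-3.27 ± 0.54, adjusted p = 3.68e-05). IGF1R averaged 90.7 ± 4.66 CPM in fractal THP-1 and 111 ± 3.54 CPM in fractal controls (-0.30 ± 0.07), and 73.0 ± 3.87 and 85.9 ± 0.446 CPM on smooth topography (-0.23 ± 0.07). Without smooth THP-1 replicate 2 the smooth fall of IGF1R missed the threshold (adjusted p = 0.0632), as it did without a filter on low counts (0.0785).

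IGF2R averaged 544 ± 56.4 CPM in fractal THP-1 and 633 ± 2.98 CPM in fractal controls (-0.22 ± 0.09, adjusted p = 0.0412), and 482 ± 40.1 and 607 ± 20.0 CPM on smooth topography (-0.33 ± 0.09). The fractal fall of IGF2R missed the threshold in 5 of 18 fits that left out 1 library, with an adjusted p up to 0.138, and with upper-quartile scaling (0.212), DESeq2 (0.0627), RLE scaling (0.0700), the filter at 1 CPM in 3 libraries (0.0563) and a fit to the 6 libraries alone (0.0903). With the libraries that stood apart left out it was -0.31 ± 0.06 (2.45e-05). In all, 4 of the 10 genes rose and 4 fell on fractal topography, where 25.0% of all genes rose and 25.5% fell. On smooth topography 1 rose and 5 fell, against 17.3% and 17.7%. Their median log2 fold change was 0.00 on fractal and -0.28 on smooth topography, against 0.04 and 0.02 over all genes. Without the libraries that stood apart 9 passed on fractal and 8 on smooth topography, against 53.1% and 44.6% of all genes in either direction. In that fit IGFBP3, IGFBP5 and IGFBP7 rose on fractal topography and the other genes that passed fell. On smooth topography IGFBP5 alone rose. The part of macrophage RNA in these differences was not tested.

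**Figure D3:**
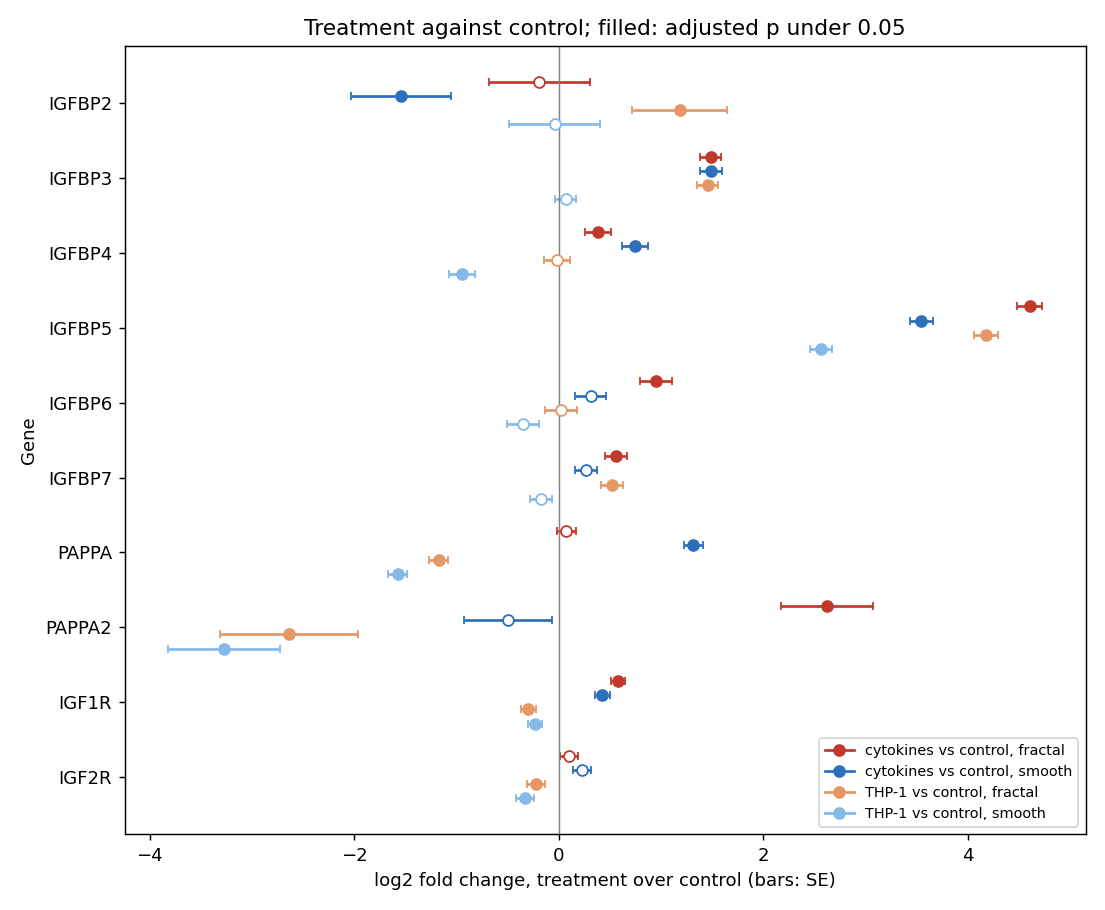
Log2 fold change of each gene, treatment over control, with SE, for cytokines and THP-1 on fractal and smooth topography. Filled points have an adjusted p under 0.05. IGFBP5 lies to the right in all 4 comparisons, and PAPPA lies left of 0 in both THP-1 comparisons and right of 0 with cytokines on smooth topography (1.32).

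Controls alone show how the genes differed with topography in untreated cells. IGFBP5 was lower on fractal topography, with 63.6, 66.5 and 61.6 CPM in fractal controls against 155, 150.05 and 158 CPM in smooth controls (-1.27 ± 0.11, adjusted p = 6.89e-08). IGF1R was higher, with 115, 111 and 108 CPM in fractal controls against 85.9, 85.4 and 86.3 CPM in smooth controls (0.38 ± 0.07, adjusted p = 0.00383). The other 8 did not pass. PAPPA2 had 0.841 ± 0.222 CPM in fractal and 2.51 ± 0.144 CPM in smooth controls (-1.56 ± 0.46, adjusted p = 0.0889), IGFBP4 2547 ± 11.6 and 1875 ± 43.9 CPM (0.44 ± 0.13, 0.0841), PAPPA 266 ± 12.9 and 215 ± 10.8 CPM (0.31 ± 0.09, 0.0944), and IGFBP7 369 ± 7.90 and 468 ± 14.1 CPM (-0.34 ± 0.11, 0.125). In each of the 10 genes the fractal and smooth values did not overlap, which held for 30.3% of all genes tested.

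Of the 10 genes 1 was higher and 1 lower on fractal controls, against 0.651% and 1.12% of all genes tested, with a median log2 fold change of -0.24, against -0.01 over all genes. The count depended on which libraries set the spread. Without the libraries that stood apart, neither a control, 6 passed, against 7.17% of all genes, with IGFBP4, IGFBP7, PAPPA and PAPPA2 added (adjusted p = 7.91e-09, 1.25e-05, 0.000306 and 0.0109). Leaving out fractal THP-1 replicate 3 alone also gave 6, against 5.09% of all genes. In a fit to the 6 control libraries alone 9 passed, against 19.4% of all genes. DESeq2 passed 5, against 3.16%, and 6 passed without a filter on low counts, against 1.26%.

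Under cytokines the difference in IGFBP5 between topographies was not detected, with 1554 ± 34.7 CPM on fractal and 1803 ± 313 CPM on smooth topography (-0.21 ± 0.10, adjusted p = 0.356). It passed without the libraries that stood apart (-0.29 ± 0.07, 0.00220). PAPPA was lower on fractal topography, with 279.7 ± 4.27 CPM on fractal and 535 ± 51.8 CPM on smooth topography (-0.94 ± 0.09, adjusted p = 1.35e-07). IGF1R was higher on fractal topography, at 167 ± 4.46 CPM against 115 ± 4.52 CPM (0.53 ± 0.07, adjusted p = 1.27e-05). PAPPA2 was also higher, at 5.27 ± 1.55 CPM against 1.79 ± 1.18 CPM (1.56 ± 0.42, adjusted p = 0.0297). PAPPA2 missed the threshold without smooth cytokines replicate 3 (adjusted p = 0.132) or fractal cytokines replicate 1 (0.203) or 2 (0.0530), and in a fit to these 6 libraries alone (0.0822). In all 2 genes were higher and 1 lower, against 1.72% and 2.74% of all genes tested. A fit to these 6 libraries alone passed 2, against 4.87% in either direction, and a fit without the libraries that stood apart passed 5, against 9.42%, with IGFBP5 and IGFBP6 (0.50 ± 0.10, adjusted p = 0.000604) added. IGFBP3, at 526 ± 17.5 CPM on fractal and 618 ± 129 CPM on smooth topography, passed without smooth cytokines replicate 3 (-0.40, adjusted p = 0.00267).

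With THP-1, 6 of the 10 genes were higher on fractal topography and 0 lower, against 8.25% and 11.7% of all genes tested, with a median log2 fold change of 0.33, against 0.00 over all genes. IGFBP4 averaged 2517 ± 782 CPM on fractal and 973 ± 11.5 CPM on smooth topography (1.37 ± 0.13, or 1.08 ± 0.05 without the libraries that stood apart). IGFBP3 averaged 515 ± 44.6 and 231 ± 5.58 CPM (1.16 ± 0.10), and PAPPA 118 ± 15.1 and 72.2 ± 6.66 CPM (0.70 ± 0.09). IGF1R averaged 90.7 ± 4.66 CPM on fractal and 73.0 ± 3.87 CPM on smooth topography (0.31 ± 0.07, adjusted p = 0.00235), but missed the threshold in a fit to these 6 libraries alone (0.0518). IGFBP5 and IGFBP7 missed it in that fit as well (0.106 and 0.189), which left 3 genes, against 9.42% of all genes in either direction. A fit without the libraries that stood apart left 5, against 25.5%.

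IGFBP5 averaged 1159.8 ± 172 CPM in fractal and 915 ± 47.5 CPM in smooth THP-1 libraries (0.34 ± 0.10, adjusted p = 0.0189), and the groups overlapped through fractal replicate 3. It missed the threshold without smooth THP-1 replicate 2 (adjusted p = 0.0917) or 3 (0.0630) or fractal THP-1 replicate 1 (0.0933) or 2 (0.0763), and was 0.46 ± 0.07 (1.22e-06) without the libraries that stood apart. IGFBP7 averaged 531 ± 133 and 415 ± 9.97 CPM (0.36 ± 0.11, adjusted p = 0.0201). It missed the threshold without smooth THP-1 replicate 2 (0.0803) or 3 (0.0657), and was 0.13 ± 0.06 (0.157) without fractal THP-1 replicate 3. The macrophage marker sum was also lower on fractal THP-1 libraries (19.2 to 20.9 CPM) than on smooth ones (35.6 to 39.6 CPM). Among its genes CD14 alone averaged higher on fractal topography (6.77 against 5.59 CPM). The part of the marker sum in these differences was not tested.

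**Figure D4:**
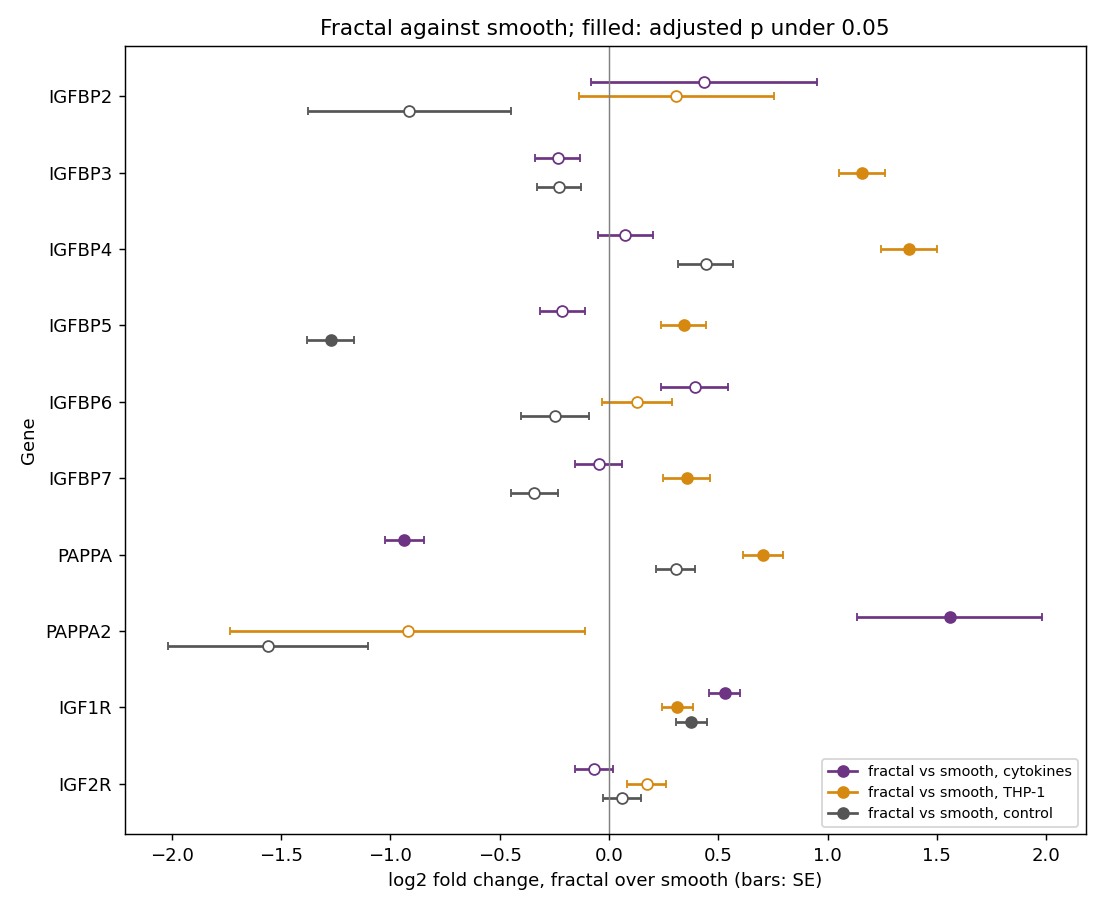
Log2 fold change of each gene, fractal over smooth, with SE, under cytokines, with THP-1 and in controls. Filled points have an adjusted p under 0.05. PAPPA lies left of 0 under cytokines (-0.94) and right of 0 with THP-1 (0.70), and IGF1R lies right of 0 in all 3 conditions.

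Interactions test whether a treatment's effect differed between the topographies. For cytokines 3 genes passed. The log2 effect was higher on fractal topography for IGFBP5 (1.06 ± 0.15, adjusted p = 6.33e-05) and PAPPA2 (3.12 ± 0.62, 0.00382), and lower for PAPPA (-1.24 ± 0.13, 8.10e-07). That is 2 higher and 1 lower, against 1.28% and 1.43% of all genes tested. IGFBP5 started lower in fractal than in smooth controls (63.9 against 154 CPM). With cytokines its mean was not higher on fractal topography (1554 against 1803 CPM). PAPPA2 averaged 0.841 CPM in fractal and 2.51 CPM in smooth controls, and 5.27 and 1.79 CPM with cytokines. A fit without the libraries that stood apart passed 6, against 8.82% in either direction, with IGFBP4 (-0.38 ± 0.07), IGFBP6 (0.74 ± 0.14) and IGFBP7 (0.30 ± 0.08) added, and leaving out fractal THP-1 replicate 3 alone also gave 6, against 6.78%. A fit to the 12 libraries of the comparison passed 6, against 6.47%, and 5 passed without a filter, against 1.80%. For IGFBP3 the difference between its responses was -0.01 ± 0.14 (adjusted p = 0.998). For THP-1 the log2 effect passed as higher on fractal in 5 genes and as lower in 0, against 5.35% and 7.88% of all genes. The 5 were IGFBP5 (1.62 ± 0.15, adjusted p = 3.43e-08), IGFBP3 (1.39 ± 0.15, 2.36e-07), IGFBP4 (0.93 ± 0.18, 0.000929), IGFBP7 (0.70 ± 0.15, 0.00256) and PAPPA (0.40 ± 0.13, 0.0417). For PAPPA this was a smaller fall on fractal (-1.17) than on smooth topography (-1.57). For IGFBP4 it was a change of -0.02 on fractal against a fall of -0.95 on smooth topography. Without the libraries that stood apart IGFBP4 fell on both, by -0.31 on fractal and -0.95 on smooth topography (interaction 0.64 ± 0.07). The same 5 passed without the libraries that stood apart, against 22.0% of all genes in either direction. The PAPPA call was lost in 11 of 18 fits that left out 1 library, with an adjusted p up to 0.122. Each interaction shares its controls with the comparisons above. The THP-1 interaction of IGFBP5 includes its lower start in fractal controls (63.9 against 154 CPM). With THP-1 its means were 1159.8 CPM on fractal and 915 CPM on smooth topography.

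Other genes of the pathway were taken from a list of 41, of which 35 passed the filter on low counts. The ligand IGF1 had 0 counts in all 18 libraries, an upper limit of 0.00999 CPM that covers counting error only. IGF2, the other ligand, averaged 12.7 ± 4.90 CPM in fractal cytokines, 9.76 ± 1.79 in smooth cytokines, 8.75 ± 0.836 in fractal THP-1, 5.71 ± 1.03 in smooth THP-1, 11.0 ± 1.23 in fractal control and 9.29 ± 0.888 in smooth control libraries. IGF2 fell with THP-1 on smooth topography (-0.70 ± 0.22, adjusted p = 0.0166) and passed in no other comparison. INSR, the insulin receptor, rose with cytokines by 0.79 ± 0.17 on fractal and 1.26 ± 0.17 on smooth topography, and with THP-1 by 0.95 ± 0.17 and 0.58 ± 0.17.

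The pappalysin inhibitors went opposite ways with THP-1. STC1 averaged 130.3 ± 39.9 CPM in fractal THP-1 and 16.4 ± 1.12 CPM in fractal controls (3.00 ± 0.18), and 117 ± 9.69 and 13.7 ± 1.40 CPM on smooth topography (3.09 ± 0.18). STC2 averaged 86.9 ± 2.56 CPM in fractal THP-1 and 573 ± 12.5 CPM in fractal controls (-2.72 ± 0.16), and 98.4 ± 7.49 and 609 ± 1.68 CPM on smooth topography (-2.63 ± 0.16). With cytokines STC1 rose by 1.97 ± 0.18 on fractal and 2.26 ± 0.18 on smooth topography. STC2 fell on smooth topography (-0.46 ± 0.15, adjusted p = 0.0275), with 0.18 ± 0.15 (0.425) on fractal, and its interaction did not pass (0.134). The smooth fall of STC2 without the libraries that stood apart was -0.72 ± 0.13, and its interaction passed (0.90 ± 0.17, adjusted p = 0.00560).

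HTRA1, a serine protease that also cuts binding proteins, had the lowest adjusted p of the list among rises in 3 of the 4 treatment comparisons. It averaged 783 ± 103 CPM in fractal THP-1 and 156 ± 7.10 CPM in fractal controls (2.33 ± 0.10), and 245 ± 7.69 and 134 ± 3.36 CPM on smooth topography (0.87 ± 0.10). Its THP-1 response was larger on fractal topography (interaction 1.46 ± 0.14, adjusted p = 4.68e-08). FOXO1, a transcription factor restrained by insulin and IGF signalling, rose with cytokines by 1.15 ± 0.10 on fractal and 1.21 ± 0.10 on smooth topography, and with THP-1 by 1.48 ± 0.10 on fractal and 0.63 ± 0.10 on smooth topography. The protease ADAM9 and the IGF2 mRNA-binding protein gene IGF2BP3 were among the falls with THP-1, by -0.97 ± 0.09 and -0.99 ± 0.09 on fractal and -0.84 ± 0.09 and -0.71 ± 0.09 on smooth topography. Of the 35 genes tested, 13 rose and 5 fell with cytokines on fractal topography, where 13.0% of all genes rose and 12.9% fell, and 12 rose and 4 fell on smooth topography (13.2% and 12.4% of all genes). With THP-1 13 rose and 12 fell on fractal (25.0% and 25.5% of all genes) and 10 rose and 10 fell on smooth topography (17.3% and 17.7%). Their median log2 fold changes were 0.13 and 0.10 with cytokines and -0.03 and -0.01 with THP-1, against 0.03, 0.01, 0.04 and 0.02 over all genes. Between topographies 5 were higher and 1 lower on fractal under cytokines (1.72% and 2.74% of all genes), and 11 were higher and 3 lower with THP-1 (8.25% and 11.7%). In controls 0 of the 35 passed in edgeR and in limma-voom and 1 in DESeq2, with 5 at an unadjusted p under 0.05 in edgeR. Without the libraries that stood apart 6 were higher and 4 lower under cytokines, 11 were higher and 6 lower with THP-1, and 4 were higher and 1 lower in controls, against 9.42%, 25.5% and 7.17% of all genes in either direction.

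The genes whose 6 group means most resembled those of IGFBP5 were C1S, SNAP25 and C1R, with root mean square differences of 0.27, 0.38 and 0.44 in centred log2 CPM among 10724 protein-coding genes. C1S, a complement protease, averaged 106 CPM in fractal cytokines, 113 in smooth cytokines, 108 in fractal THP-1, 51.5 in smooth THP-1, 5.11 in fractal control and 8.90 in smooth control libraries. For PAPPA2, with the next widest range (4.43), the nearest were KLF4, SLC7A5 and SLC6A9, at 0.55, 0.59 and 0.66. The 6 points of each profile share libraries, so these are descriptions of likeness.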

How the data were processed

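Per the labels' protocols, messenger RNA was captured on poly-T beads, made into libraries without strand information and read from both ends. GRCh38 (hg38), featureCounts 1.5.0-p3, HISAT2 2.0.5 and CASAVA appear, with no roles, in the submitters' processing notes; the annotation is not given in the sources used here. The values analysed are the authors' deposited raw counts for 58735 Ensembl genes in 18 libraries. Symbols, positions and exon lengths came from a current name list and GENCODE 29. Reads that overlap another gene cannot be separated by strand: exons of IGFBP5, IGFBP7 and PAPPA share 298, 364 and 2450 bases with exons of other genes.

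The counts were scaled by TMM and filtered with filterByExpr (min.count 10, min.total.count 15), which kept 16129 genes and all 10 described here. edgeR 4.0.16 in R 4.3.3 fitted 1 mean for each of the 6 groups to 18 libraries (quasi-likelihood F-tests, robust, 12 residual degrees of freedom), and p-values were adjusted by Benjamini-Hochberg over all genes tested within each of 9 comparisons, with a threshold of 0.05. Alternatives were RLE and upper-quartile scaling, DESeq2 1.42.0, limma-voom (limma 3.58.1), no filter, at least 1 CPM in at least 3 libraries, only the groups of a comparison, the replicate number as a block, and leaving out each library. After the data were seen, a fit that omits fractal THP-1 replicate 3 and smooth cytokines replicate 2 was added. The genes and lists were chosen with earlier results of these data known. Named pathway genes are IGF1, IGF2, STC1, STC2, INSR and the leading 3 by adjusted p in each direction of a comparison, of which fewer are described. Likeness of profile was ranked for the 2 genes with the widest range, among protein-coding genes averaging 5 CPM or more in some group. Promoter sequences came from RefSeq (GRCh38.p14). Figures were drawn with matplotlib 3.10.9.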

Additional observations from a re-analysis of the deposited data

Results flagged for a closer look

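The response to a treatment differed between the topographies, by a test of that difference, in 8 cases. With cytokines the log2 effect on fractal minus that on smooth topography was 1.06 for IGFBP5, -1.24 for PAPPA and 3.12 for PAPPA2. With THP-1 it was 1.39 for IGFBP3, 0.93 for IGFBP4, 1.62 for IGFBP5, 0.70 for IGFBP7 and 0.40 for PAPPA. Without the libraries that stood apart these were 0.98, -1.32 and 3.41 with cytokines and 1.31, 0.64, 1.73, 0.47 and 0.49 with THP-1, in the same order, and each passed the threshold.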

How the results depend on the processing

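Counts of the 10 genes past the threshold were within 1.5 times the reported ones under RLE and upper-quartile scaling, limma-voom, the filter at 1 CPM and the replicate block, for all 9 comparisons. Fractal against smooth controls, with 2 genes, gave 5 with DESeq2, 6 without a filter, 9 in a fit to its own groups and 6 without the libraries that stood apart. Fractal against smooth with THP-1, with 6, gave 3 in a fit to its own groups. Fractal against smooth under cytokines, with 3, gave 5 without the libraries that stood apart. The cytokine interaction, with 3, gave 5 without a filter, 6 in a fit to its own groups and 6 without the libraries that stood apart. Leaving out 1 library gave 2 to 6 genes for fractal against smooth controls, 2 to 4 under cytokines and 4 to 6 with THP-1. It gave 5 to 9 for cytokines on smooth and 6 to 7 on fractal, 5 to 8 for THP-1 on smooth and 6 to 8 on fractal, and 3 to 6 and 4 to 5 for the cytokine and THP-1 interactions. For THP-1 against control on fractal topography IGFBP2 ranged from -0.063, without replicate 3, to 1.56, without replicate 1, of fractal THP-1, and was -0.062 without both libraries that stood apart, and IGFBP6 turned to -0.26 without both. The cause of these changes was not tested beyond the libraries left out.

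No pairing of the libraries by replicate number was detected over the genes that passed the filter. Of 45 pairs with the same number in different groups, 0 had a correlation of deviations over 0.1, and the median was 0.01. Genes below the filter were left out, among them IGFBPL1 of the pathway list, with 22 counts. In replicate 3 it had 8 counts in fractal and 3 in smooth cytokines, and 0 in fractal and 3 in smooth THP-1. Replicate 3 had 2 in fractal and 4 in smooth controls. Its other counts were 1 in replicate 2 of each THP-1 group. Deviations from means of 3 libraries cannot show that libraries of the same number were handled apart. With the replicate number as a block, IGFBP2 with THP-1 on fractal missed the threshold (1.04, adjusted p = 0.0564) and IGF2R with cytokines on smooth passed it (0.23, 0.0380). Upper-quartile scaling gave a median log2 fold change over all genes of 0.13 for THP-1 on fractal, against 0.04 with TMM. IGFBP2 and PAPPA2 rest on 637 and 524 counts over all libraries, which limits their precision.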
